A study of Mus musculus with 6 samples.

Results

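Peaks near 44 interferon response genes were examined in natural killer (NK) cells, cytotoxic innate lymphocytes, that either carried or lacked Rroid, a long noncoding RNA locus upstream of Id2. The assay was ATAC-seq, which reads out open chromatin because a transposase inserts adapters where DNA is accessible. The members are the rows of the deposited peak table whose nearest gene is one of the 44 and whose distance to its start site is at most 100 kb. They numbered 136 of 51775 peaks, and every gene had at least 1. The last member inside the limit lay 96.4 kb from the Ifngr1 start site (wildtype 2407 ± 249, Rroid-deficient 2000.2 ± 146). The only row beyond it lay 100.05 kb from the same site (326 ± 45.5 and 358 ± 19).

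Both groups were splenic cells of C57BL6 mice, sorted as negative for CD3 and CD5 and positive for NK1.1 and NKp46, and 50000 cells of each genotype were used. The groups were wildtype and Rroid deficient, with 3 libraries each. Age, sex, the way Rroid was removed and whether libraries came from separate animals are not given in the sources used here, so every p-value rests on the spread among these libraries alone, which may be technical. Libraries are called by the number that ends their column, wildtype 1, 2 and 3 and Rroid-deficient 4, 5 and 6. Values are normalized reads per peak, as mean ± SD with n = 3 unless each library is given, and positions are mm9.

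Each library had between 27572006 and 47939665 reads in peaks, fewest in Rroid-deficient libraries 4 and 6, and across peaks Pearson's r between libraries of a genotype was 0.981 to 0.987, against 0.943 to 0.962 across genotypes. The 13 peaks across a block taken as the Rroid site (chromosome 12, 26000744 to 26079794) summed to 4182 to 5600 in wildtype and 51.4 to 56.8 in Rroid-deficient libraries. Its edges were set by peaks assigned to Gm17746 whose Rroid-deficient mean was under 5% of wildtype, as held for 11 of the 13. The difference between the groups there follows from that choice and is no separate check of the labels. All 7 NK-cell markers had a start-site peak, summing to 20969 to 24367 in wildtype and 16610 to 20197 in Rroid-deficient libraries. Of the 7, 4 fell (Klrb1c, Tbx21, Prf1 and Gzmb), where 8.73% of all peaks within 1 kb of a start site fell. Ncr1, Eomes and Klrk1 had no call, and the log2 fold change of Klrk1 was positive (0.22). T-cell markers had a start-site peak at 3 of 6 genes, with sums of 139 to 235 in wildtype and 539.7 to 578 in Rroid-deficient libraries, while Cd3e, Cd4 and Cd8a had none. Of these 3 peaks 2 rose, Cd3g (log2 fold change 2.57) and Cd5 (1.23), although the cells were sorted as negative for CD3 and CD5. Of all peaks within 1 kb of a start site 10.4% rose. The corresponding sums were 1581 to 1779 and 1520.2 to 1644 for 5 of 6 markers of type 1 innate lymphoid cells, which share this gate, and 142 to 216 and 206 to 292 for 2 of 6 B-cell markers. They were 799.6 to 938 and 762 to 842 for 2 of 6 myeloid markers, and 2762 to 2934 and 2426 to 2494 for 3 of 6 markers of plasmacytoid dendritic cells, of which Tcf4 fell (log2 fold change -0.28) and Pacsin1 rose (1.34). The part of such cells in the results was not tested, and a change in the mixture of cells cannot be told apart from a change within each cell.

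Type I interferons bind a receptor built from IFNAR1 and IFNAR2, and interferon gamma binds one built from IFNGR1 and IFNGR2. Kinases at the receptors phosphorylate STAT proteins. A complex that contains STAT2 and IRF9 binds the interferon-stimulated response element (ISRE) in promoters. The induced genes restrict viruses, sense foreign nucleic acid and modify proteins, and in NK cells interferon signalling is known to promote cytotoxicity.

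The ISRE is what many of these promoters share, so its core letters, GAAA and GAAA with any 2 bases between them, were searched on both strands of the 250 bases before each RefSeq start (build GRCm38.p6, not the build of the peaks). Of the 44 genes 35 were matched by symbol, with 43 promoters. The letters stood in 10 of these 43 (23.3%), each of a different gene, against 2.98% of all 32851 promoters of the same length. Below are the 160 bases before the start of 4 genes with the ISRE letters, in capitals, chosen to show one whose start-site peak fell (Ifit3), a pair whose peak rose (Oas1a and Rsad2) and one without a call (Isg15). Runs longer than the motif are overlapping matches.
Ifit3, chr19:34583369-34583528, plus strand: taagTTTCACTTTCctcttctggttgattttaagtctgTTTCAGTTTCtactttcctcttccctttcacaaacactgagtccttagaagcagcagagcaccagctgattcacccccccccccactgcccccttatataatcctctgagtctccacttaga
Oas1a, chr5:120907526-120907685, minus strand: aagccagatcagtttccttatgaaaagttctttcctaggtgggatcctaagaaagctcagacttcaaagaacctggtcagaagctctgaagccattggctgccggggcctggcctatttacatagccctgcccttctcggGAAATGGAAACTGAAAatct
Rsad2, chr12:26456453-26456612, minus strand: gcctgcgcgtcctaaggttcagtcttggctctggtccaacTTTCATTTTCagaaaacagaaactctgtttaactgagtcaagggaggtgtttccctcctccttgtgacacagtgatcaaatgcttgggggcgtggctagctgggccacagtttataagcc
Isg15, chr4:156200819-156200978, minus strand: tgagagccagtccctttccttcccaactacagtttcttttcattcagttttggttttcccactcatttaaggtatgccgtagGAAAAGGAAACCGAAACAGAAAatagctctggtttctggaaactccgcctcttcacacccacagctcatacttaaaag

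Most peaks near interferon response genes did not pass the test. In Rroid-deficient cells 15 of the 136 rose and 9 fell (limma, Benjamini-Hochberg adjusted p under 0.05 over all peaks), 17.6% against 25.8% of all peaks. The share that rose was 11% against 13.8% of all peaks, and the share that fell was 6.62% against 12.1%. Members had a median log2 fold change of -0.0028, where that of all peaks was -0.008. Calls stood at 15 genes, 9 with rising peaks only, 4 with falling peaks only and 2 with both, and 29 genes had none. A gene had from 1 to 13 peaks, and 13 genes had 1. The share of all genes with a call was not computed, so these counts do not show whether 15 is few or many. Groups did not overlap at 51 members, 37.5% against 40.1% of all peaks. A called difference of at least 1.5-fold on the log2 scale was found at 10 members, 9 higher and 1 lower, where 16.8% of all peaks had one (10.6% higher and 6.14% lower).

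All 8 calls below the median height of all peaks (195 normalized reads) were rises, among 55 member peaks, where 14.3% of all such peaks rose and 6.47% fell, 20.8% together. Among the 81 member peaks at or above that height 7 rose and 9 fell, where 13.2% of all such peaks rose and 17.7% fell, 30.9% together. Scaled to total reads in peaks, 17 members rose and 6 fell. Of the 24 calls, edgeR made 24 and DESeq2 22, and 13 were kept whichever single library was left out. The share of all peaks that fell was 12.1% with all 6 libraries. It was 7.8% without wildtype library 2, 9.38% without Rroid-deficient library 4 and 8.06% without Rroid-deficient library 6. Falling members numbered 4 without wildtype library 2 or Rroid-deficient library 4, and 5 without Rroid-deficient library 6. Without Rroid-deficient libraries 4 and 6, which leaves 1 library of that genotype that is assumed to vary like the others, 5 rose and 2 fell. These 7 were the peaks described below at Ifngr2, the Zbp1 and Ifit1 assignments, the Adar intron, both Samhd1 introns and 76085 bp upstream of Ifngr1.

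**Figure D1:**
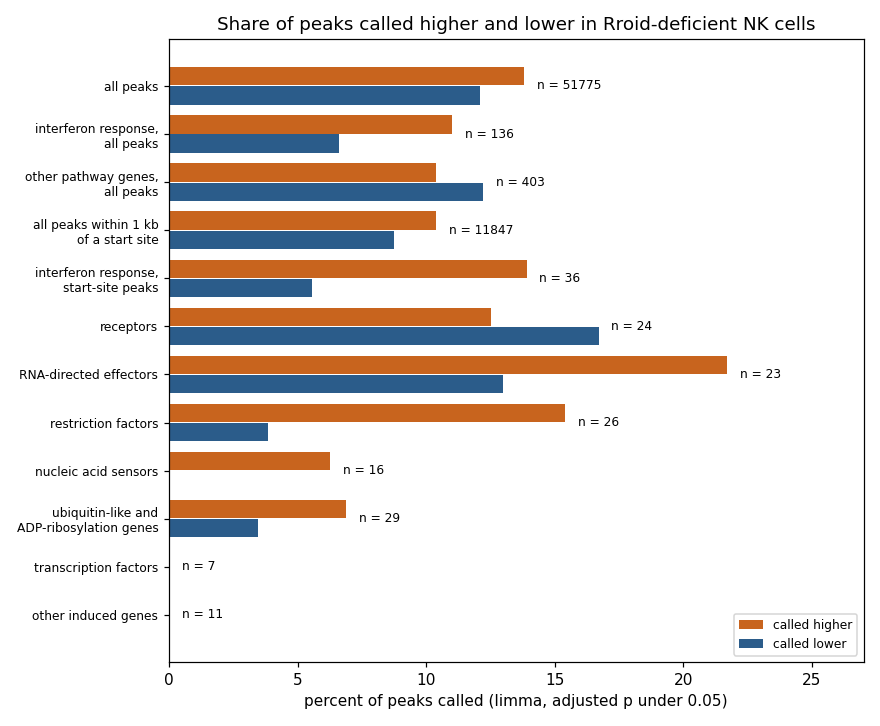
Percent of peaks called higher (orange) and lower (blue) in Rroid-deficient cells by limma, for all peaks, for the interferon response genes, for other genes of the pathway and for each role, with the number of peaks beside each pair of bars. Interferon response peaks were called higher in 11% and lower in 6.62%, against 13.8% and 12.1% of all peaks, and transcription factors and other induced genes had no bar because 0 of their peaks were called.

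At start sites the share of calls was close to that of all peaks. Of the 44 genes 36 had an assigned peak within 1 kb of the start site. Of these 36 peaks 5 rose and 2 fell, 19.4% against 19.2% of all peaks within 1 kb of a start site (10.4% higher and 8.73% lower). Among the 99 member peaks beyond 1 kb 10 rose and 7 fell, 17.2% against 27.3% of all peaks at that distance (14.7% higher and 12.6% lower). The rises were at Ifngr2, Adar (upstream promoter), Oas1a, Oasl1 and Rsad2 and the falls at Ifit2 and Ifit3. Without wildtype library 3 or Rroid-deficient library 6, 3 rose (Ifngr2, Oasl1 and Rsad2) and 1 fell (Ifit3), and without wildtype library 2 or Rroid-deficient library 4, 4 rose and 1 fell. The other 29 had log2 fold changes from -0.28 to 0.32. Start-site peaks of genes with a matched RefSeq promoter, called or not, were split by the ISRE letters, and those of unmatched genes were left out. Among the 8 whose promoter held the letters the median log2 fold change was -0.01, with 2 higher and 1 lower. Among the 21 without the letters it was also -0.01, with 3 higher and 1 lower. Ifih1, Ifit1, Ifitm1, Ifitm2, Ifitm3, Ifngr1, Oas2 and Parp9 had no assigned peak that close, although broad peaks at Ifngr1 and Ifih1 covered the start site. The Parp9 start, by its distances, lay within the start-site peak assigned to Dtx3l, which had no call (log2 fold change 0.14).

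**Figure D2:**
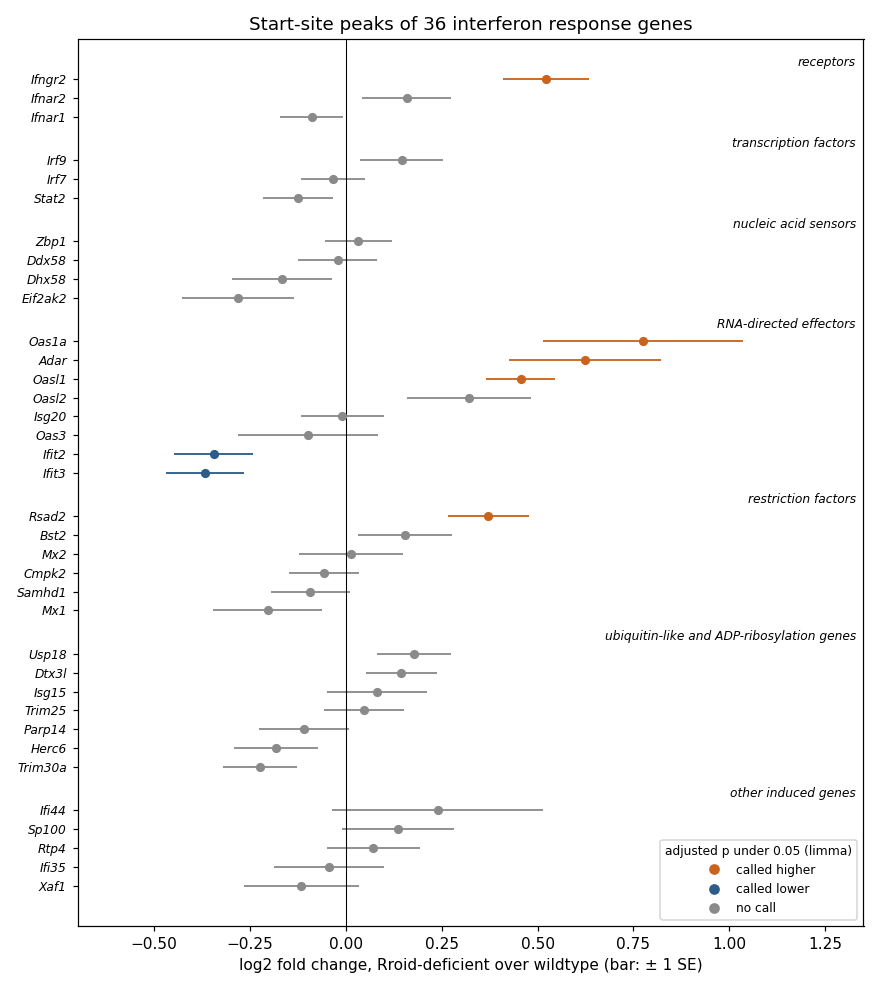
Log2 fold change of the start-site peak of 36 interferon response genes, Rroid-deficient over wildtype, by role. Points are limma estimates from 3 libraries per genotype and bars are 1 SE, and 5 genes are marked as called higher, 2 as called lower and 29 as without a call.

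The receptor genes had 24 peaks, of which 3 rose (12.5%) and 4 fell (16.7%), where 13.8% of all peaks rose and 12.1% fell. Ifngr2, the signalling chain of the interferon gamma receptor, rose at its start site. Its promoter peak (chromosome 16, 91545691 to 91547692, centred 648 bp upstream) held 867, 833 and 704 in wildtype libraries and 1085, 1261 and 1101 in Rroid-deficient ones. Each Rroid-deficient library stood above each wildtype library. The peak rose 1.43-fold, a log2 fold change of 0.52 with SE 0.11 (limma adjusted p = 0.00215).

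Ifnar1, a chain of the type I receptor, rose at both a low intronic peak and a distal peak, but not at its start. The intronic peak (91490978 to 91491601, 5829 bp into the gene) held 98.8, 102 and 73.3 in wildtype and 153, 148 and 179 in Rroid-deficient libraries, without overlap. It rose 1.74-fold (log2 fold change 0.81 with SE 0.20, limma adjusted p = 0.00689). The intergenic peak 9178 bp upstream (91475826 to 91476738) held 917, 955 and 883 against 1042, 1256 and 1141, a log2 fold change of 0.32 (adjusted p = 0.0315, limma). At the Ifnar1 start site values were 4054, 4429 and 4264 against 3671, 4279 and 4050.2, with overlapping groups and no call. Ifnar2, the partner chain, had no call at any of 4 peaks, and its start-site peak held 772, 828 and 664 against 777, 926 and 822. The genes Ifnar2, Ifnar1 and Ifngr2 lie in the same stretch of chromosome 16.

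Ifngr1, the ligand-binding chain of the interferon gamma receptor, had 13 peaks, the most of any member, and 4 of them fell while 0 rose (2 further peaks rose with total reads or loess scaling, and 1 of them with DESeq2). The largest of these falls, 76085 bp upstream in intergenic DNA (chromosome 10, 19234106 to 19237253), went from 659, 729 and 749 in wildtype to 459, 492 and 533 in Rroid-deficient libraries. All wildtype libraries were above all Rroid-deficient libraries, a log2 fold change of -0.53 with SE 0.12 (limma adjusted p = 0.00279). The other falls were smaller. The high peak 86800 bp upstream went from 4775 ± 319 to 4043 ± 299 (log2 fold change -0.24), that 96359 bp upstream had -0.26 and an intronic peak 5235 bp into the gene had -0.39. The peak over the start site was the highest of all member peaks, with 9139, 9929 and 9875 in wildtype and 8269.7, 8885 and 8449.8 in Rroid-deficient libraries. These groups did not overlap, but the peak was not called (log2 fold change -0.18, adjusted p = 0.0731, limma). Peaks so far upstream are assigned to Ifngr1 only because its start site is the nearest.

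Some of the receptor calls were lost when 1 library was left out. The distal Ifnar1 call was lost without any 1 library other than Rroid-deficient library 4 (adjusted p up to 0.110, limma). The Ifngr1 calls 96359 and 86800 bp upstream were lost without wildtype library 2 or 3 or Rroid-deficient library 4 or 6 (adjusted p up to 0.245 and 0.185), and DESeq2 did not make them (0.0524 and 0.0533), nor did limma with DESeq2 size factors (0.0585 and 0.0540) or loess (0.0623 and 0.0794). The intronic Ifngr1 call was lost without wildtype library 1 or 2 or Rroid-deficient library 4 (up to 0.175) and with total reads (0.0617). Total reads also ended the call 96359 bp upstream (0.0623). The peaks 93609 and 61818 bp upstream of Ifngr1 were called higher with total reads or loess, and the first of them also by DESeq2 (0.0496).

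**Figure D3:**
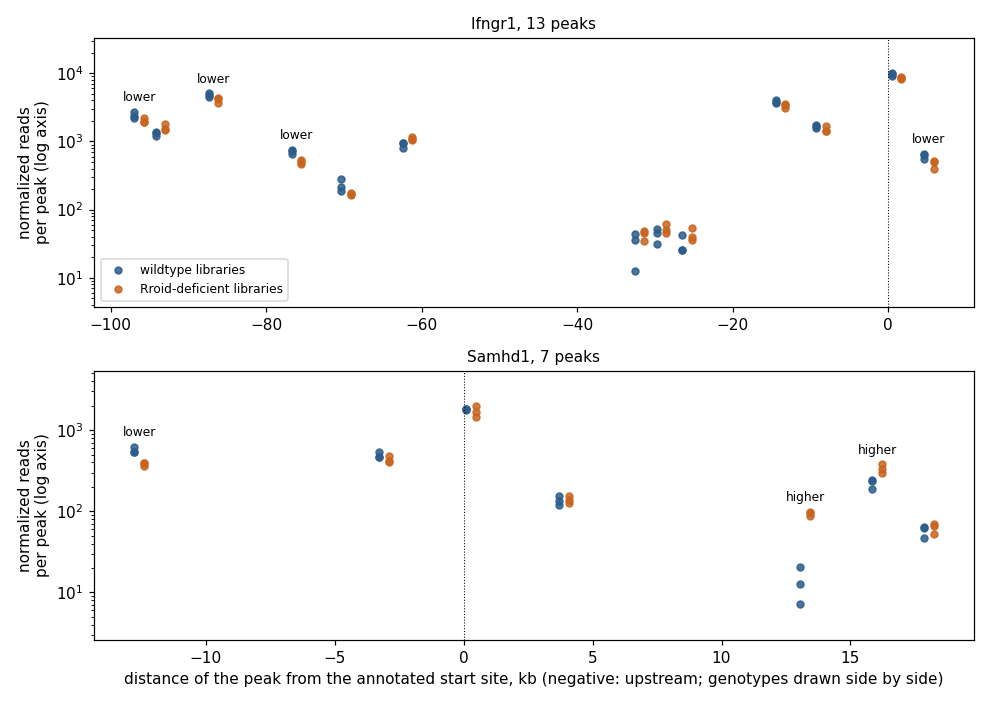
Normalized reads (log axis) in each library at the 13 peaks of Ifngr1 and the 7 peaks of Samhd1, against distance from the annotated start site in kb, with wildtype (blue) and Rroid-deficient (orange) libraries drawn side by side and called peaks marked. At Ifngr1 the 4 marked peaks were lower, and at Samhd1 the peak 13240 bp into the gene rose from at most 20.5 to at least 86.6 normalized reads.

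None of the 7 peaks near the transcription factors Stat2, Irf9 and Irf7, the last a factor that amplifies type I interferon production, was called (0 of 7 by limma, edgeR and DESeq2), and 2 of the 7 had an unadjusted limma p under 0.05. Of all peaks 25.8% were called by limma. The Stat2 promoter peak (chromosome 10, 127707110 to 127708101) held 1987, 2003 and 1972 in wildtype and 1669.6, 1990.5 and 1819.6 in Rroid-deficient libraries. The Irf9 promoter peak (chromosome 14, 56222492 to 56223653) held 1549, 1611 and 1323 against 1497, 1902 and 1568. Irf7 had the highest start-site peak of the 36 (chromosome 7, 148450254 to 148452713), with 4654, 5016 and 4409 against 4282, 5047 and 4437. At all 3 genes the groups overlapped, with log2 fold changes of -0.13 (SE 0.09), 0.15 (SE 0.11) and -0.03 (SE 0.08).

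Of 16 peaks near sensors of foreign nucleic acid 1 rose and 0 fell, 6.25% called against 25.8% of all peaks. It lay 28093 bp upstream of Zbp1, a sensor of Z-form nucleic acid, in an intron of the neighbouring gene Pmepa1 (chromosome 2, 173071801 to 173073231). It held 104, 84 and 73.3 in wildtype and 179, 182 and 183 in Rroid-deficient libraries, which were all higher and close together. The rise was 2.08-fold (log2 fold change 1.06 with SE 0.19, limma adjusted p = 0.000617). The Zbp1 promoter peak held 1508, 1561 and 1536 against 1577, 1595 and 1535, without a call.

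Ddx58 encodes the RNA helicase sensor RIG-I, Ifih1 the sensor MDA5, Dhx58 the related helicase LGP2 and Eif2ak2 the kinase PKR, which is activated by double-stranded RNA. The Ddx58 start-site peak held 1002, 1005 and 1015 in wildtype and 956, 1112 and 919 in Rroid-deficient libraries. The peak over the Ifih1 start held 1588 ± 188 against 1474 ± 47.4. Eif2ak2 held 392, 357 and 477 against 354, 290.3 and 360.3, and Dhx58 687, 698 and 591 against 508, 701 and 563. In each of these 4 genes the groups overlapped at the start site, and no peak was called.

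Effectors that act on RNA had calls in both directions, 5 higher (21.7%) and 3 lower (13%) among 23 peaks, where 13.8% of all peaks rose and 12.1% fell. Ifit2 and Ifit3, which encode proteins that bind foreign RNA, fell at their start sites, and Ifit1 had no start-site peak. Ifit3, whose sequence above carries separate ISRE matches, held 942, 1063 and 979 in wildtype and 747, 779 and 783 in Rroid-deficient libraries at its promoter (chromosome 19, 34657037 to 34658201). Ifit2 held 1033, 1087 and 1244 against 858, 899 and 884 at its start site (34624774 to 34625871, annotated as 5′ UTR). At both genes all Rroid-deficient libraries were lower, with log2 fold changes of -0.37 with SE 0.10 (limma adjusted p = 0.0132) and -0.35 with SE 0.10 (limma adjusted p = 0.0205).

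The deepest fall of any member peak was assigned to Ifit1 but lay 37651 bp downstream of its start, in an intron of Slc16a12 (34752474 to 34753586). It went from 521, 392 and 382 to 207, 168 and 199, a log2 fold change of -1.16 with SE 0.16 (limma adjusted p = 3.9e-05), or 2.26-fold lower. Between Ifit2 and Ifit3, a peak 13152 bp upstream of Ifit3, in an Ifit2 intron, went the other way, from 210.1, 212 and 182 to 259.9, 287 and 261 (log2 fold change 0.42, adjusted p = 0.0467, limma).

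The oligoadenylate synthetase family, whose active enzymes make the messenger that switches on RNase L, rose at 2 start sites. Oasl1 held 1825, 1879 and 1870.5 in wildtype and 2659, 2286 and 2728 in Rroid-deficient libraries (chromosome 5, 115371591 to 115373635), 1.38-fold higher (log2 fold change 0.46 with SE 0.09, limma adjusted p = 0.00118). Oas1a, a low peak with its ISRE match next to the start (121357159 to 121357879), held 35.6, 46.2 and 44 against 69, 77.1 and 70.1. It was 1.72-fold higher (log2 fold change 0.77 with SE 0.26, limma adjusted p = 0.037). Oasl2 (log2 fold change 0.32) and Oas3 (-0.10) had no call at their start sites, and neither did Isg20, an exonuclease, with 688 ± 12 against 684 ± 47.

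Adar, which edits adenosines in double-stranded RNA, rose at 2 of its 3 peaks. Its intronic peak (chromosome 3, 89530912 to 89531439) held 60.5, 49.6 and 36.1 in wildtype and 105, 105 and 87 in Rroid-deficient libraries, 2.03-fold higher (log2 fold change 1.03 with SE 0.26, limma adjusted p = 0.00658). The peak at the upstream promoter (89518135 to 89519563) held 122, 154 and 98.7 against 164, 188 and 220.0, 1.53-fold higher (adjusted p = 0.0278, limma). Neither pair of groups overlapped. The third Adar peak, 143 bp from an annotated start site, was the highest, with 947, 991 and 893 against 1041, 1045 and 997. Its groups did not overlap either, but it had no call (log2 fold change 0.12, adjusted p = 0.384, limma).

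Several calls among the RNA-directed effectors were lost when 1 library was left out. Oas1a lost its call without any 1 of the 6 libraries (adjusted p 0.0688 to 0.0972, limma) and with loess scaling (0.084). Ifit2 lost it without wildtype library 3 or Rroid-deficient library 4 or 6 (up to 0.0939), Ifit3 at its promoter without wildtype library 2 (0.0782), the peak upstream of Ifit3 without any 1 library other than wildtype library 1 (up to 0.142), and the upstream Adar promoter without wildtype library 3 or Rroid-deficient library 6 (up to 0.141).

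Restriction factors had 4 rising peaks (15.4%, against 13.8% of all peaks) and 1 falling peak (3.85%, against 12.1%) of 26, all at Samhd1 and Rsad2. Samhd1, a hydrolase that depletes deoxynucleotides needed by viruses, rose most at a peak 13240 bp into the gene, in an intron (chromosome 2, 156947453 to 156947983). It held 7.12, 12.6 and 20.5 in wildtype and 94.2, 86.6 and 99.1 in Rroid-deficient libraries, or 8, 15 and 21 reads against 71, 91 and 82. All 3 Rroid-deficient libraries stood far above wildtype, 6.96-fold on the means, which was the largest difference of any member (log2 fold change 2.82 with SE 0.37, limma adjusted p = 2.77e-05). The next intronic peak, 16040 bp into the gene (156944458 to 156945379), rose from 239.5, 234 and 190.5 to 293, 379 and 335 (log2 fold change 0.60, adjusted p = 0.00848, limma).

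A peak 12593 bp upstream of Samhd1, in an intron of Rbl1, fell from 533, 628 and 539 to 358, 389 and 395 (156973025 to 156974078, log2 fold change -0.57, adjusted p = 0.00249, limma). The Samhd1 start-site peak (log2 fold change -0.09) lay between these and had no call.

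Rsad2, which encodes the antiviral enzyme viperin, rose at its promoter and in an intron. The promoter peak (chromosome 12, 27140850 to 27141755) held 691, 774 and 708 in wildtype and 900.4, 1000.5 and 910.4 in Rroid-deficient libraries, 1.29-fold higher (log2 fold change 0.37 with SE 0.11, limma adjusted p = 0.015). The intronic peak (27137732 to 27138278) held 83.7, 76.5 and 69.3 against 158, 124 and 143, 1.85-fold higher (adjusted p = 0.00421, limma). Neither pair of groups overlapped. Cmpk2, the neighbouring nucleotide kinase gene, held 1561, 1606 and 1614 against 1465, 1663 and 1471 at its start site, without a call. This pair of genes lies on the chromosome that carries Rroid, with its nearest peak 1049 kb from the Rroid block.

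The dynamin-like GTPase genes Mx1 and Mx2, the tetherin gene Bst2 and the Ifitm genes, which encode membrane proteins that hinder virus entry, had 14 peaks in all and 0 calls by limma, edgeR and DESeq2, and 0 of the 14 had an unadjusted limma p under 0.05. This part of the role leaves out Samhd1 and Rsad2, which hold all 5 of the role's calls. Its 0 calls therefore follow from the grouping. Of the 26 restriction factor peaks limma called 19.2%, against 25.8% of all peaks. Mx1 held 411 ± 60.5 in wildtype and 355 ± 34 in Rroid-deficient cells at its start site, Mx2 414 ± 39.4 and 419 ± 53.2, and Bst2 694 ± 22.2 and 779 ± 132. No restriction factor call was lost when 1 library was left out, but without both Rroid-deficient libraries 4 and 6 the calls at the Rsad2 promoter (limma adjusted p = 0.0695), in its intron (0.168) and upstream of Samhd1 (0.0616) were.

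**Figure D4:**
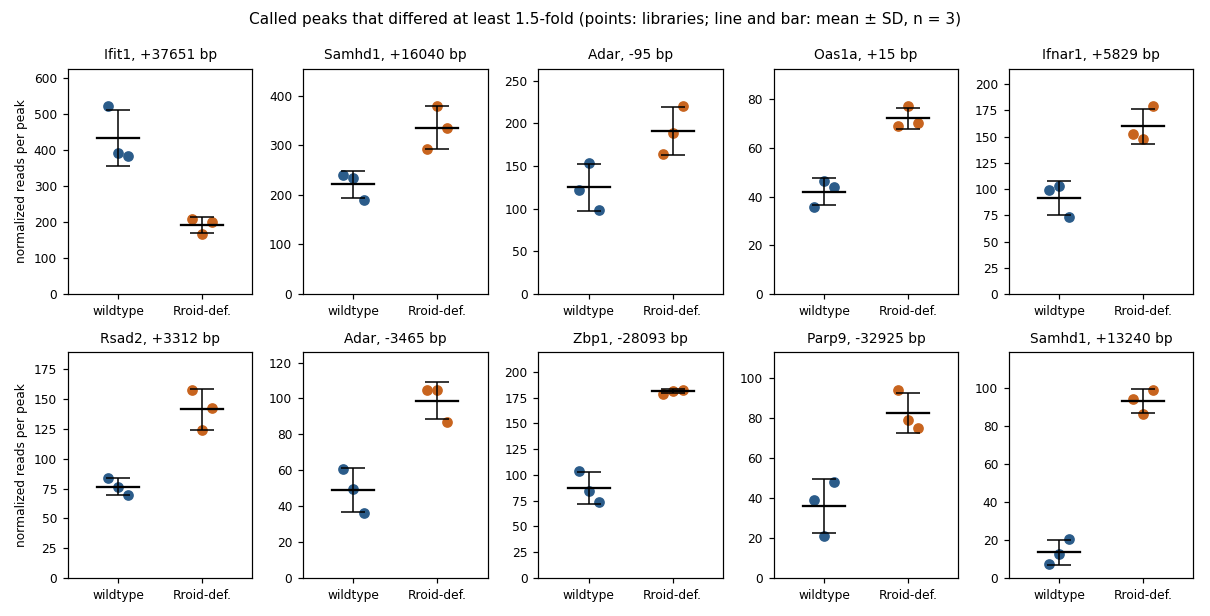
Normalized reads per peak in each library (points) with mean and SD (n = 3) at the 10 member peaks called at a difference of at least 1.5-fold on the log2 scale, each panel with its own axis from 0 and the distance from the annotated start site in its title. The groups overlap in no panel, which held for all 24 called member peaks and so is no trait of these 10, and the peak assigned to Ifit1 is the only lower one.

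Genes of the ubiquitin-like modifier ISG15, of ubiquitin ligases and of ADP-ribosylation had 2 rising peaks and 1 falling peak of 29, none at a start site, 10.3% called against 25.8% of all peaks. The farthest of 3 peaks upstream of Parp9, which encodes an ADP-ribosylation protein, lay 32925 bp from its start in intergenic DNA (chromosome 16, 35905322 to 35905941). It held 39.2, 21 and 47.9 in wildtype and 94.2, 79 and 75 in Rroid-deficient libraries, 2.3-fold higher (log2 fold change 1.25 with SE 0.31, limma adjusted p = 0.00671). The nearer Parp9 peaks, 24555 and 19383 bp upstream, had no call and log2 fold changes of -0.47 and -0.25. A peak 17380 bp upstream of Usp18, the protease that removes ISG15, went from 249, 236 and 299.9 to 319.6, 378 and 349 (log2 fold change 0.42, adjusted p = 0.0426, limma). A peak 10387 bp upstream of Herc6, the mouse ligase for ISG15, went from 304, 320.1 and 356 to 248, 227 and 256 (log2 fold change -0.42, adjusted p = 0.0368, limma).

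Isg15 itself, whose promoter above carries 3 overlapping ISRE matches, held 369.5, 435 and 363 in wildtype and 383, 436 and 415 in Rroid-deficient libraries (chromosome 4, 155574681 to 155575211). These groups overlapped and the peak had no call. At start sites of this role the smallest p-values belonged to Trim30a (1219 ± 84.3 and 1042 ± 21.7, adjusted p = 0.0995), Usp18 (1132 ± 88.8 and 1278 ± 1.5, adjusted p = 0.191) and Herc6 (1481 ± 234 and 1296 ± 74.5, adjusted p = 0.242), all by limma. Dtx3l, Trim25 and Parp14, which encode a further ubiquitin ligase pair and an ADP-ribosyltransferase, had overlapping groups at their start sites, with log2 fold changes of 0.14, 0.05 and -0.11. The call near Herc6 was lost without any 1 library other than wildtype library 1 (adjusted p up to 0.126) and with total reads (0.0789), and that near Usp18 without wildtype library 1 or 2 or Rroid-deficient library 5 or 6 (up to 0.167).

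Among the other induced genes, Ifi35, Ifi44, Rtp4, Sp100 and Xaf1, 0 of 11 peaks were called by limma, edgeR or DESeq2, and 1 had an unadjusted limma p under 0.05. The share of all peaks called by limma was 25.8%. Xaf1, which encodes a binding partner of the apoptosis inhibitor XIAP, held 353, 279 and 267 in wildtype and 256, 297 and 271 in Rroid-deficient libraries at its start site. Sp100, a component of PML nuclear bodies, held 348, 332 and 336 against 321, 457 and 352, and Ifi44 88.2, 60.5 and 78.1 against 129, 59 and 90.7. The groups overlapped at all 3.

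Outside the 44 genes, a list of 112 further pathway genes had peaks within 100 kb at 103 genes. Of these 403 peaks 42 rose and 49 fell, 22.6% called (10.4% higher and 12.2% lower) against 25.8% of all peaks (13.8% higher and 12.1% lower), with a median log2 fold change of -0.03. PYHIN genes, which encode sensors and regulators that bind DNA, had 0 rising and 4 falling peaks of 13, led by the Ifi204 promoter (1312 ± 90.3 to 857 ± 42.0, log2 fold change -0.61) and Ifi203 (757 ± 64.5 to 533 ± 28.1). Interferon-induced GTPases had 1 rising (2.04%) and 9 falling (18.4%) peaks of 49. Those with the smallest p were near Gbp3 (log2 fold change -0.54), at the Gbp4 promoter (1628 ± 202 to 1198 ± 107, -0.44) and near Irgm1 (-0.58).

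Over all peaks 13.8% rose and 12.1% fell. STAT and IRF factor genes had 5 rising (8.77%) and 11 falling (19.3%) peaks of 57. The falls included distal peaks of Irf8, a factor of myeloid and lymphoid development (5260 ± 326 to 3423 ± 417), and of Irf1 (216 ± 47.1 to 101 ± 21.3). Ligands and receptor kinases had 4 and 7 of 52 (7.69% and 13.5%). Ifng, the gene of interferon gamma itself, rose at a peak 6075 bp from its start (215 ± 4.97 to 391 ± 19.5) and fell at one 28946 bp away (4378 ± 165 to 3379.6 ± 262), and a distal peak of the kinase gene Jak1 fell (829 ± 41.9 to 550.1 ± 65.2). Feedback regulators had 6 and 3 of 44 (13.6% and 6.82%), with rises near Cish (311 ± 33.2 to 555 ± 86.9) and Socs3 (888 ± 88.7 to 1319.97 ± 157) and a fall near Ptpn2 (log2 fold change -0.56).

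Nucleic acid sensing genes and adaptors had 2 rising (4.35%) and 4 falling (8.7%) peaks of 46, where 13.8% of all peaks rose and 12.1% fell. Aim2, a sensor of cytosolic DNA, held the 3 with the smallest p, falling at 2 intronic peaks (1997 ± 122 to 1343 ± 118, and 354 ± 40.7 to 215 ± 7.18) and rising at the third (log2 fold change 0.55). Further induced effectors had 24 and 11 of 142 (16.9% and 7.75%). An intronic peak of Parp11 rose from 31.8 ± 2.96 to 144 ± 14.3, 4.54-fold, and one of Zc3hav1, the antiviral protein ZAP, from 203 ± 14.7 to 400.2 ± 37.0. A peak nearest to Ifitm7, in an intron of Bmerb1, fell from 279.5 ± 23.3 to 103 ± 10.2. Each named peak of this list was called at an adjusted p under 0.05 by limma. Without wildtype library 2 the falling peaks of the list numbered 26, and without Rroid-deficient library 4 they numbered 31. In these fits 7.8% and 9.38% of all peaks fell, against 12.1% with all 6 libraries.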

How the data were processed

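Build mm9 and, as tools, MACS2 2.1.0, BWA, DiffBind, HOMER, Trimmomatic 0.32, R 3.1.1 and bcl2fastq 2.16.0 are named per the submitters' processing notes. What each did, and any cut-site shift or duplicate removal, is not given in the sources used here. Deposited signal values are read counts at shared peaks that the authors scaled by a single factor for each library, and 100.0% of them came out as whole reads at a tolerance of 0.01. In wildtype library 2 the lowest value stood for 2 reads, so 1 read was taken as the smallest gap between values. The median member peak held 201 to 331 reads per library, and the lowest member value stood for 8 reads, a counting error of 35.4%.

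Limma 3.58.1 with an intensity trend was fitted to log2 of the value plus 1 over all 51775 peaks, without a filter, with Benjamini-Hochberg adjustment over all of them. At low peaks fold changes on this scale differed from those of edgeR in either direction. The log2 fold change 32925 bp upstream of Parp9 was 1.25 by limma and 1.20 by edgeR. At the Oasl2 intronic peak it was 0.35 and 0.42. EdgeR 4.0.16 and DESeq2 1.42.0 on the recovered reads, other scalings, pseudocounts, limits and left-out libraries were alternatives. The fit was also run on simulated reads with the same extra spread between libraries set at every peak. That setting need not match these libraries, so the run is no check of the calls.

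Columns showed genotypes only, so libraries were not paired. Every called member peak is printed. Start-site peaks were printed for receptors, transcription factors and up to 3 members per role with the smallest p, and of the further list up to 3 called peaks per role. Ddx58, Ifih1, Cmpk2, Mx2, Isg15, Isg20, Oasl2, Oas3, Samhd1, Dtx3l, Trim25, Parp14 and Ifngr1 start-site values were added after they were seen. So were the values of the third Adar peak. The members and lists were chosen with earlier results of these data known. Neighbouring peaks are not independent, and peaks were given to genes by distance alone. Intervals and errors of counting cover counting only, since reads carry no molecular identifiers.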

Additional observations from a re-analysis of the deposited data

How the results depend on the processing

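No paired analysis was possible because the columns of the 2 genotypes carry no shared numbers. The counts of member peaks (15 higher, 9 lower), start-site peaks (5 and 2) and further pathway peaks (42 and 49) stayed within 1.5 times under DESeq2 size factors, total reads, loess, edgeR, DESeq2, both pseudocounts, the filter on low values and the distance limits. At an adjusted p under 0.01 they were 9 and 3, 2 and 0, and 28 and 25, and under 0.1 the falling member peaks numbered 15. Over all peaks 13.8% rose and 12.1% fell with all 6 libraries. Fits without 1 library called 10.1% to 14.5% of all peaks higher and 7.8% to 12.2% lower. Leaving out 1 library gave 10 to 13 higher and 4 to 11 lower member peaks, 3 to 4 and 1 to 2 start-site peaks, and 30 to 44 and 26 to 54 further peaks. Without Rroid-deficient libraries 4 and 6, chosen after the data were seen, they were 5 and 2, 1 and 0, and 27 and 25. Members had a median log2 fold change of -0.0028, which became 0.056 with total reads, where that of all peaks was 0.05, -0.023 with the filter, 0.022 without libraries 4 and 6, and -0.032 to 0.020 without 1 library. Its SD between the Rroid-deficient libraries was 0.015. No called peak changed sign in any of these fits. With fewer libraries the test has fewer degrees of freedom, and other causes were not tested. Depth limits the low peaks most, where libraries 4 and 6 hold the fewest reads.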
